A study of Mus musculus with 15 samples.

Results

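Binding of FLAG-tagged transcription factors was mapped by ChIP-seq around the FGF receptor genes Fgfr1, Fgfr2 and Fgfr3 (gene IDs 14182, 14183 and 14184) in mouse osteoblasts. Peaks were chosen by position alone, as those with their midpoint in the mm9 windows chr8:26530000-26790000 (Fgfr1), chr7:137200000-137510000 (Fgfr2) and chr5:33960000-34180000 (Fgfr3). Peaks of all 12 lists that overlapped by at least 1 bp were merged into sites, which gave 66 sites from 213 peaks, of 61108 sites and 165108 peaks in the whole series. The Fgfr1 window held 20 sites, the Fgfr2 window 26 and the Fgfr3 window 20. Sites are numbered along each window from low to high coordinate, so that Fgfr2-S9 is the 9th site of the Fgfr2 window.

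The primary cells were calvarial osteoblasts of postnatal day 1 C57BL/6 mice in which both Sp7 alleles carried the BioFL tag, with 2 libraries, and wild-type mice of the same age and strain, with 1. The other libraries came from MC3T3-E1, a mouse calvarial line of pre-osteoblasts, at passages 5 to 10. Culture lasted 1 week, in osteogenic medium that held ascorbic acid phosphate (50 ug/ml), beta-glycerophosphate (10 mM) and BMP2 (10 ng/ml). FLAG M2 antibody was used in both cell systems. In the line it pulled down Dlx5, Sp7, Sp1 and a form of Sp7 that the labels call Sp7mut, with 2 libraries each, and GFP with 1. The labels do not say what the mutation is, how the factors were expressed in the line, or whether the replicates of a group were grown or isolated separately. Each list gives peak positions without a read count or score, so the depth behind a peak is unknown, and the number of peaks limits precision.

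FGF receptors are receptor tyrosine kinases that dimerise on binding an FGF ligand and signal through the MAPK and phosphoinositide pathways. In human patients, activating mutations of FGFR1 and FGFR2 cause premature fusion of skull sutures, and those of FGFR3 cause short-limbed dwarfism. In mouse calvaria, Fgfr2 is linked to proliferating osteoprogenitors and Fgfr1 to differentiating osteoblasts, while Fgfr3 restrains cartilage growth in long bones. Osteoblasts do not form in mice without Sp7 (Osterix), a zinc finger protein of the Sp family. Dlx5 is a homeodomain factor that binds AT-rich cores, and Sp1 is a broadly expressed zinc finger factor that binds GC boxes.

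Promoter sequences of Fgfr2 and Fgfr3 are shown because these factors recognise GC-rich and AT-rich elements. The sequences shown differ in both, for the AT-rich element by 1 match. They are RefSeq sequences in GRCm38.p6, from 250 bases before to 50 after a transcription start, read 5′ to 3′ on the gene's strand. RefSeq entries matched Fgfr2 (1 start) and Fgfr3 (2 starts), and Fgfr1 was not among them. Capitals mark the GC box GGGCGG and the homeodomain core TAATT, each searched on both strands (CCGCCC and AATTA on the other strand), and matches of the same motif may overlap. The build differs from mm9, so no peak was placed on these sequences. The Fgfr2 start lies on chr7:130266759-130267058 (minus strand), and those of Fgfr3 on chr5:33721474-33721773 and chr5:33722056-33722355 (plus strand).
Fgfr2 promoter 1: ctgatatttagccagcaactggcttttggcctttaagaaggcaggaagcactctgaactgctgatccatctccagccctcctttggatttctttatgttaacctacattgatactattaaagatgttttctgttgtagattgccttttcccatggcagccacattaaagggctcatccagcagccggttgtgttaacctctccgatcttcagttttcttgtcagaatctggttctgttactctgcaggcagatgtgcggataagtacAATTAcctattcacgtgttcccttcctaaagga
Fgfr3 promoter 1: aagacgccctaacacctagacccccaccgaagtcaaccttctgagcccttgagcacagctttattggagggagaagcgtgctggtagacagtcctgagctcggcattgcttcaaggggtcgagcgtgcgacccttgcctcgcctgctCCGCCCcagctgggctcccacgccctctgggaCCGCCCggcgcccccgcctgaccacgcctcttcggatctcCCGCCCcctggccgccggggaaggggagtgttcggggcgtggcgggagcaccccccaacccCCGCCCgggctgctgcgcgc
Fgfr3 promoter 2: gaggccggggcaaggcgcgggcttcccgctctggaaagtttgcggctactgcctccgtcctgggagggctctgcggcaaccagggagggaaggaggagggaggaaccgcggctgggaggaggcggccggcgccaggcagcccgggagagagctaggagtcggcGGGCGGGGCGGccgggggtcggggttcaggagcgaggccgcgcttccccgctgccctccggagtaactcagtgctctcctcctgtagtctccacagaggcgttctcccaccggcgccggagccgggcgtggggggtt

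The Fgfr2 promoter shown, which is that of 1 annotated start, had a GC content of 43.7%, no GC box and 1 homeodomain core. Both Fgfr3 promoters were GC-rich, at 69.7% and 73.0%, with 4 and 2 GC boxes and no homeodomain core. Of all 32851 RefSeq promoters of the same length, 35.7% held a GC box and 27.0% the homeodomain core, and the median GC content was 52.7%. A match describes the letters in this window and does not mark a bound site.

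No peak of a control list fell near the receptor genes, though both control lists are short: the wild-type list of 183 peaks and the GFP list of 269 peaks had 0 peaks in all 3 windows. All 213 peaks came from the 10 lists of tagged factors. Peaks were denser in the windows than over the whole list in each of these lists. In primary osteoblasts, the Sp7 lists held 6 and 7 peaks in the 3 windows together, a density 7.20 ± 0.163 times that of the whole list (SD, n = 2). In the cell line, this ratio was 4.89 ± 0.813 for Sp7mut, 4.30 ± 0.297 for Dlx5, 3.79 ± 0.813 for Sp7 and 3.15 ± 0.0990 for Sp1 (SD, n = 2 each). In the line, the replicates of Sp1 (3.08 and 3.22) lay below those of Dlx5 (4.09 and 4.51) and of Sp7mut (4.32 and 5.47). The replicates of Sp7 (3.21 and 4.36) overlapped in range with those of each of the other factors. The ratios describe windows set around genes and were not compared with other gene windows. Groups of 2 lists allow no exact permutation p under 0.33 (two-sided), so peak numbers were compared by their spread alone.

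**Figure D1:**
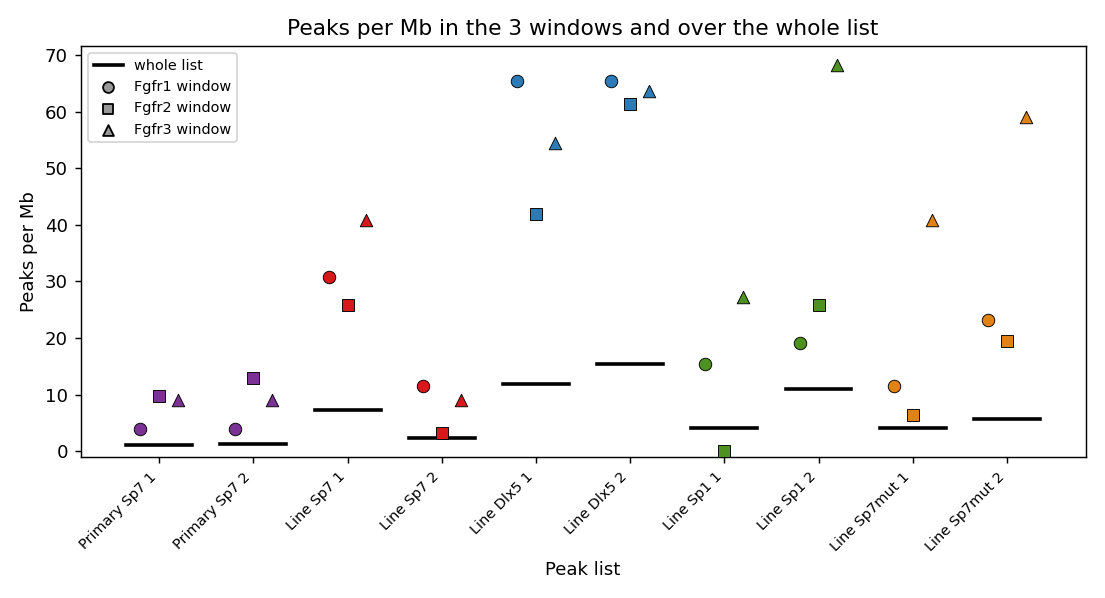
Peaks per Mb (y axis) in each of the 10 tagged lists (x axis), with a symbol for each receptor window and a black line for the whole list. Sp1 and Sp7mut were densest in the Fgfr3 window, primary Sp7 in the Fgfr2 window, and Sp1 replicate 1 had 0 peaks in the Fgfr2 window.

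Peak density in the receptor windows followed a different order for different factors. In GRCm38.p6, Fgfr1, Fgfr2 and Fgfr3 span 57.0, 104 and 15.3 kb, and their windows span 260, 310 and 220 kb. A peak or site said to be at a gene lies in its window, which also holds sequence outside the gene. Sp1 had 27.3 and 68.2 peaks per Mb in its replicates in the Fgfr3 window, 15.4 and 19.2 in the Fgfr1 window, and 0 and 25.8 in the Fgfr2 window. Both Sp1 lists were thus densest in the Fgfr3 window, while their order of the Fgfr1 and Fgfr2 windows disagreed. Sp7mut followed the same order in its replicates, with 40.9 and 59.1 peaks per Mb at Fgfr3, 11.5 and 23.1 at Fgfr1, and 6.45 and 19.4 at Fgfr2. Dlx5 was dense in every window, from 41.9 to 65.4 peaks per Mb over both lists. Cell line Sp7 had no common order: replicate 1 was densest at Fgfr3 (40.9, against 30.8 at Fgfr1 and 25.8 at Fgfr2) and replicate 2 at Fgfr1 (11.5, against 9.09 at Fgfr3 and 3.23 at Fgfr2). Primary Sp7 was sparsest at Fgfr1, with 3.85 peaks per Mb in each list against 9.68 and 12.9 at Fgfr2 and 9.09 in each at Fgfr3, which is 1 peak against 3, 4, 2 and 2.

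Sites found in both replicates of a group were taken as sites of that group. Dlx5 had 35 such sites of the 66 (53.0%, where 39.2% of all sites of the series are Dlx5 sites). Sp7mut had 13 (19.7%, against 13.9%), Sp1 had 9 (13.6%, against 15.1%), cell line Sp7 had 6 (9.09%, against 8.54%) and primary Sp7 had 6 (9.09%, against 3.58%). The shares of Sp1 and cell line Sp7 were therefore near those of the series. Of the 66 sites, 41 were found in both replicates of at least 1 group (62.1%, against 52.0% of the series), and 21 stood in 1 list only (31.8%, against 39.6%). Of these 21, 9 came from Dlx5 replicate 2, 6 from Sp1 replicate 2, 4 from Dlx5 replicate 1 and 2 from cell line Sp7 replicate 1, which are the longer lists. Requiring both replicates removed many sites of uneven pairs: cell line Sp7 had 23 sites in replicate 1 and 6 in replicate 2, and Sp1 had 9 in replicate 1 and 28 in replicate 2.

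**Figure D2:**
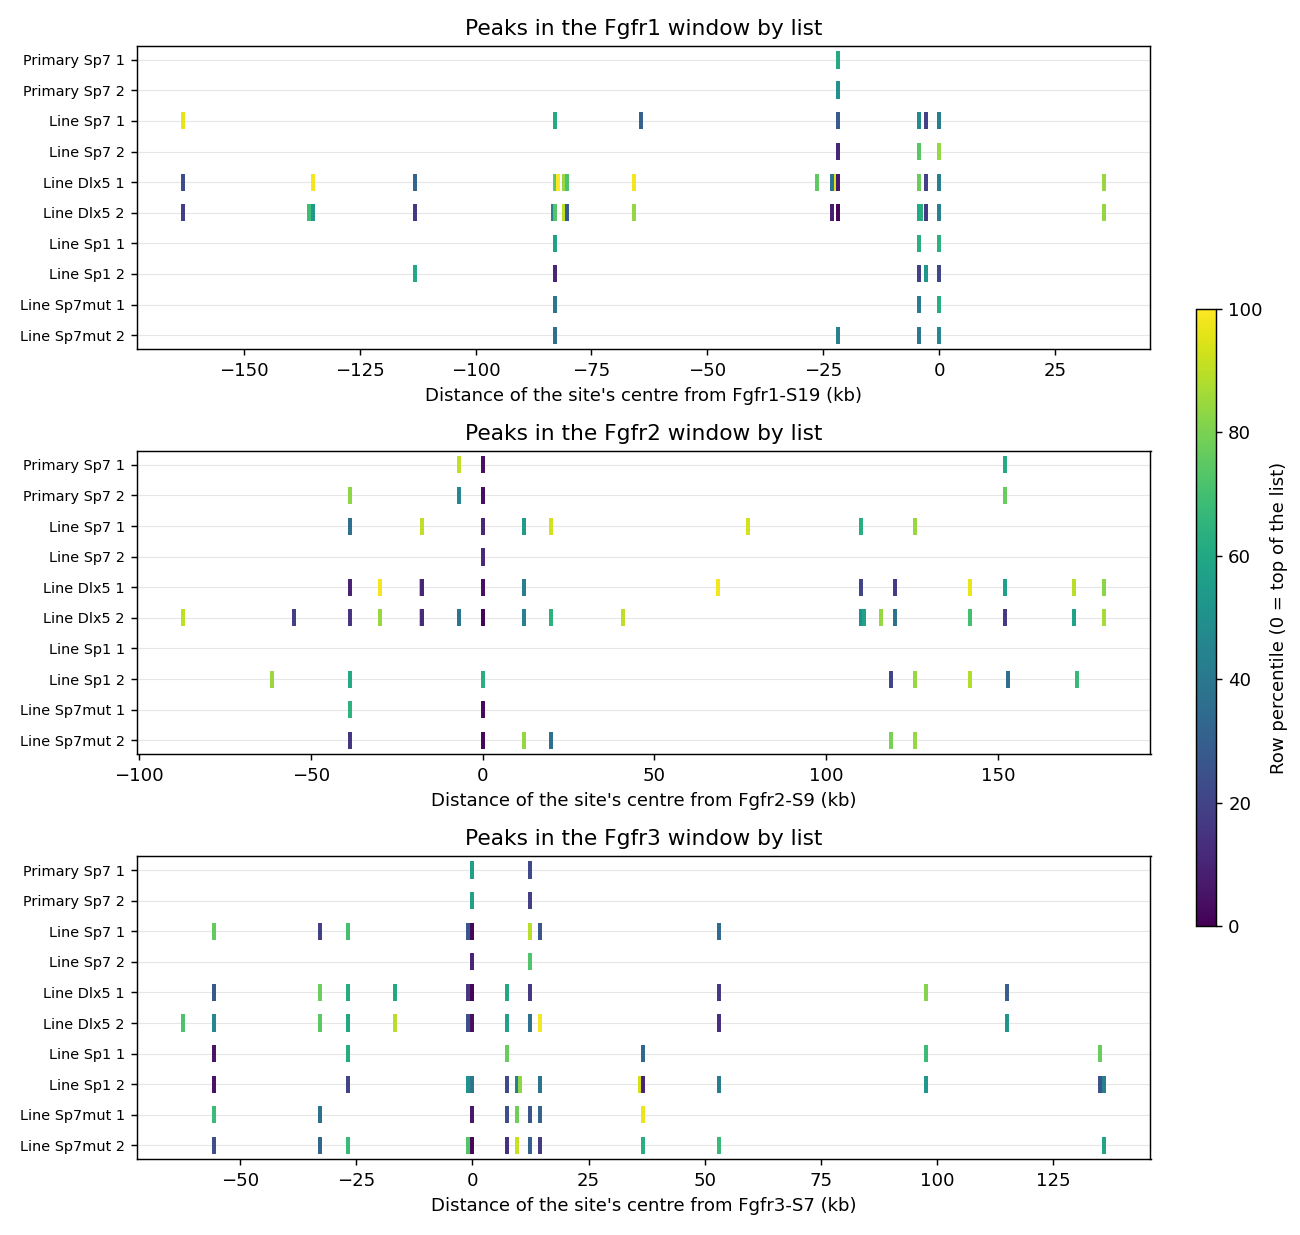
Positions of the peaks in each receptor window (x axis, kb from the site held in the most lists) in the 10 tagged lists (y axis), coloured by row percentile. Dlx5 peaks were spread over each window, while primary Sp7 peaks stood at 1 position near Fgfr1, 4 near Fgfr2 and 2 near Fgfr3.

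By locus, Dlx5 had 13 sites at Fgfr1, 12 at Fgfr2 and 10 at Fgfr3. Cell line Sp7 had 3, 1 and 2, primary Sp7 1, 3 and 2, Sp7mut 3, 2 and 8, and Sp1 3, 0 and 6 in the same order. Of the 41 sites, 22 were found in both replicates of Dlx5 and of no other group, 9 of them at Fgfr1, 9 at Fgfr2 and 4 at Fgfr3. They made up 53.7% of these sites, against 48.6% over the series, and 33.3% of all 66, against 25.3%. No site was shared by all 5 groups. At Fgfr2, 22 of 26 sites belonged to Dlx5 alone or to no group, 16 of 20 did at Fgfr1 and 9 of 20 at Fgfr3. These are 84.6%, 80.0% and 45%, where 73.3% of the sites of the series are of this kind.

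Where a peak stood in its list was given as a row percentile, which is 100 times the row number divided by the number of rows, so that low values are near the top. What the authors sorted the rows by is not stated. Earlier work on these lists saw that the order follows overlap between replicates. Sites found in both replicates may thus stand early for that reason, and a row percentile is no independent measure of peak strength. The order may be coarse late in most lists: over the last 50% of rows, 9.22% to 19.7% were followed by a row of the same chromosome, against 7.29% to 10.9% over the first 50%. Sp1 replicate 1 went the other way, with 10.9% over the first 50% and 9.22% over the last. A whole list has a median of 50 by construction. Over all peaks of the 3 windows, the mean of the list medians was 39.7 ± 2.05 for Sp7mut, 48.4 ± 9.01 for cell line Sp7, 52.8 ± 13.8 for Sp1, 54.2 ± 5.49 for primary Sp7 and 57.5 ± 3.04 for Dlx5 (SD, n = 2 each). Peaks in the windows were thus spread through the lists, and each list had 1 to 4 of them in its first 10%.

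The most widely held site was Fgfr2-S9, at chr7:137290788-137291003, with a peak in 9 of the 10 lists. Its row percentiles were 4.01 and 3.14 in primary Sp7, 10.6 and 11.5 in cell line Sp7, 3.62 and 1.5 in Dlx5, and 2.18 and 1.59 in Sp7mut. It was absent from Sp1 replicate 1 and stood at 62.8 in Sp1 replicate 2. The site was therefore near the top for Sp7 in both cell systems, for Dlx5 and for Sp7mut, and low or missing for Sp1. Its peaks were narrow and nearly concentric. The Sp7 and Dlx5 peaks of the line overlapped in 4 of 4 pairs of lists with midpoints 3.50 to 6.5 bp apart, and all midpoints of the 9 lists lay within 15.5 bp.

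Fgfr3-S7, at chr5:34027486-34027872, was also found in 9 of 10 lists. It stood at row percentiles of 1.43 and 10.0 in cell line Sp7, 0.810 and 3.58 in Dlx5, 5.89 and 1.83 in Sp7mut, and 55.9 and 56.9 in primary Sp7. Sp1 lacked it in replicate 1 and had it at 38.7 in replicate 2. Unlike Fgfr2-S9, it was thus near the top in the cell line and past the midpoint of both primary lists. The midpoints of Sp7 and Dlx5 peaks in the line were 6.5 to 12 bp apart.

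Fgfr3-S11, at chr5:34039904-34040137, was early in the primary Sp7 lists and late in those of the line. Primary Sp7 had it at 21.6 and 18.0, and cell line Sp7 at 89.2 and 72.5. Dlx5 had it at 15.8 and 36.6 and Sp7mut at 26.4 and 30.3, and neither Sp1 list held it. The primary lists hold 2666 and 3212 peaks and the cell line Sp7 lists 18624 and 6063, so equal percentiles stand for different numbers of peaks and no difference between the cell systems was read from them.

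Fgfr1-S15, at chr8:26690247-26690534, was the only primary Sp7 site in the Fgfr1 window and the earliest site there in both Dlx5 lists. Dlx5 held it at 6.37 and 1.22, cell line Sp7 at 28.7 and 10.3, and primary Sp7 at 60.2 and 50.3. Sp7mut had a peak of 83 bp at 43.1 in replicate 2 and none in replicate 1, and Sp1 had none. It closed a group of 4 sites within 4.83 kb, the others of which held Dlx5 peaks alone.

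These 4 sites were those that primary Sp7, cell line Sp7 and Dlx5 shared, and 3 of them were Sp7mut sites. None was an Sp1 site in both replicates. The same 4 were found when peaks had to share at least 50% of both lengths to be joined. When only the earlier 50% of each list was kept, Fgfr2-S9 was left of the 4, and with the wider 50% of peaks none was.

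**Figure D3:**
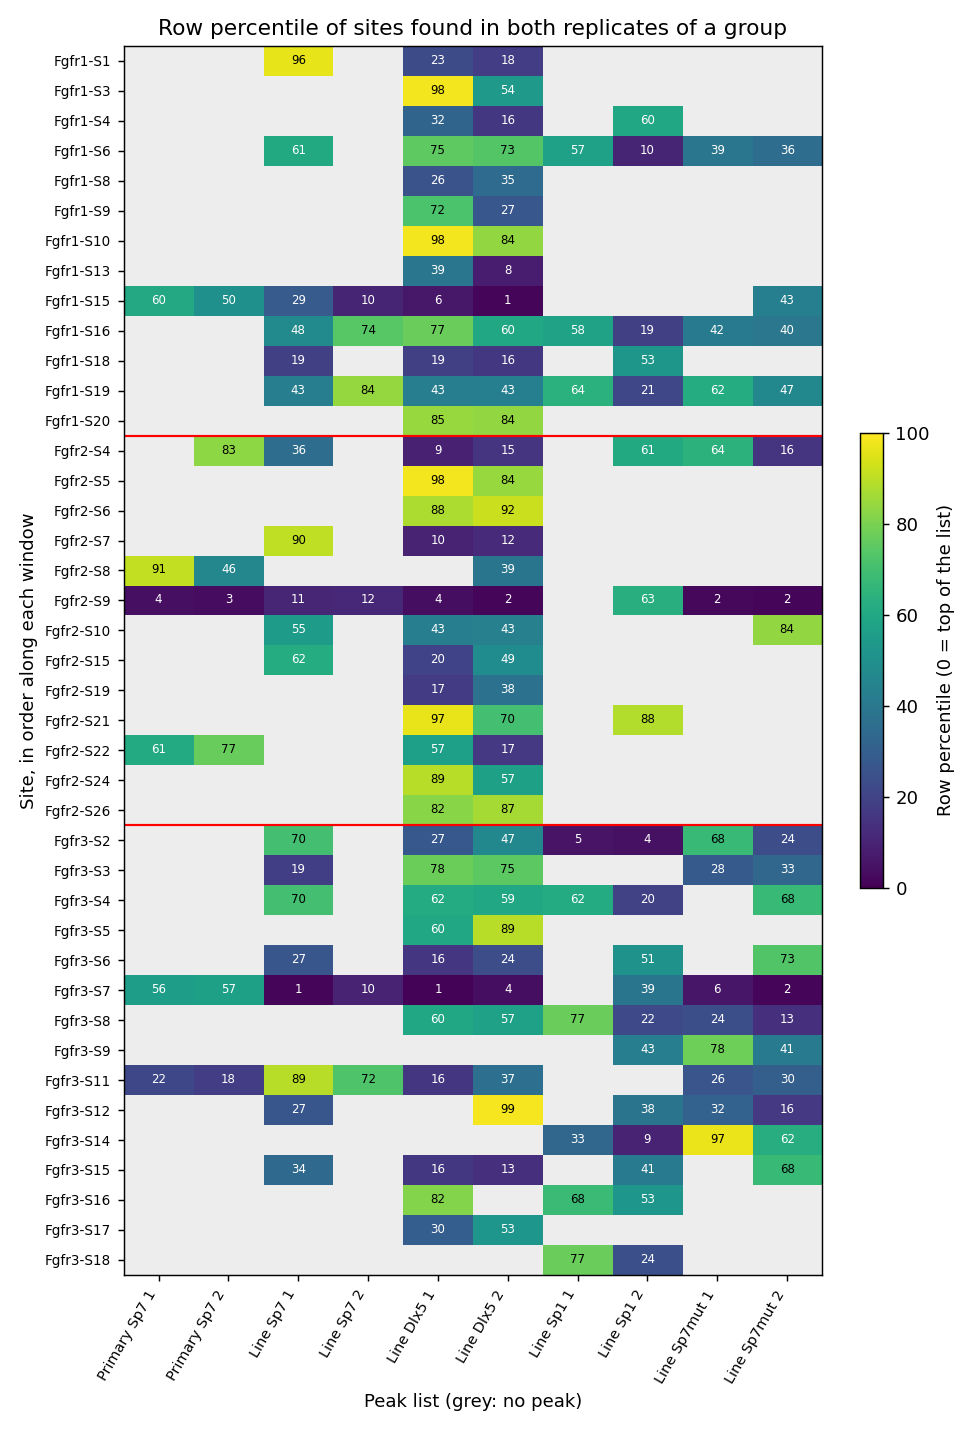
Row percentile (colour and number, 0 at the top of the list) of the 41 sites found in both replicates of at least 1 group, with sites in rows and lists in columns, and grey where a list had no peak. Fgfr2-S9 was dark in 8 of the 10 lists, while sites with peaks in both Sp1 lists had none in the primary Sp7 lists.

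The other 2 primary Sp7 sites were in the Fgfr2 window. Fgfr2-S8, at chr7:137283710-137284077, lay 7.0 kb below Fgfr2-S9, and stood at 90.7 and 46.4 in primary Sp7. Its only other peak was at 38.8 in Dlx5 replicate 2. Fgfr2-S22, at chr7:137442874-137443106, stood at 61.0 and 76.6 in primary Sp7 and at 56.6 and 16.6 in Dlx5, with midpoints 0.500 to 7.5 bp apart. No cell line Sp7 peak was found at either. Fgfr2-S4, at chr7:137251937-137252471, had a peak in 1 primary list only, at 83.1, and was a Dlx5 site (9.29 and 14.9) and an Sp7mut site (64.2 and 15.6).

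In the cell line, all 6 Sp7 sites were Dlx5 sites (100%, 95% Clopper-Pearson interval 54.1 to 100, against 87.1% of Sp7 sites in the series), and 5 were Sp7mut sites (83.3%, interval 35.9 to 99.6, against 71.7%, but 43.5% without replicate 2 of both). Of the 6, 4 were primary Sp7 sites (66.7%, interval 22.3 to 95.7, against 17.0%) and 2 were Sp1 sites (33.3%, interval 4.33 to 77.7, against 33.6%). By Sp1 replicate 2 alone, 4 of the 6 had an Sp1 peak (66.7%, against 72.2%). Seen from primary Sp7, 5 of 6 sites were Dlx5 sites (83.3%, against 69.9%), 4 were cell line Sp7 sites (66.7%, against 40.5%), 3 were Sp7mut sites (50.0%, against 50.9%) and 0 were Sp1 sites (0%, interval 0 to 45.9, against 8.15%). The share of cell line Sp7 sites that were primary Sp7 sites was 17.4% (4 of 23) without replicate 2 of both. The count of 4 was the same there, over more cell line Sp7 sites. The 6 sites of the main rule are those of the shorter cell line Sp7 list. Series shares without replicate 2 of both factors were not computed. The 17.4% and the 43.5% above therefore cannot be set against the series shares given here, which use both replicates. In Sp1 replicate 2 alone, 2 of the 6 primary Sp7 sites had a peak (33.3%, against 32.0%), a share near that of the series. The intervals cover counting error only, and neighbouring sites of a window share a locus.

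**Figure D4:**
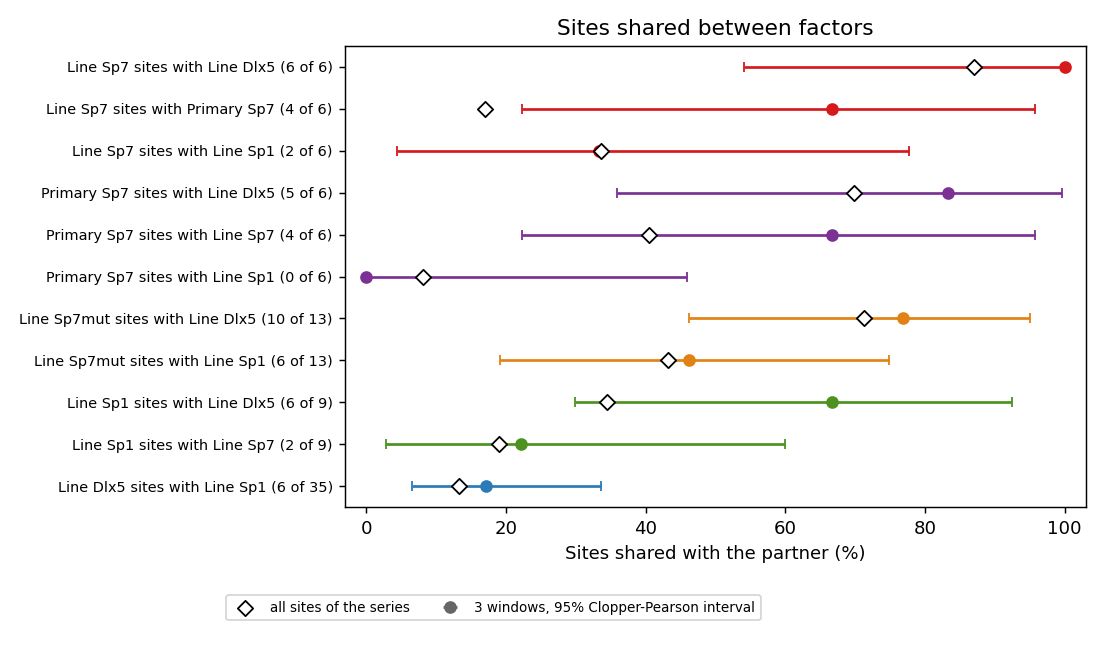
Share of the sites of a group that were also sites of a partner (x axis, %), in the 3 receptor windows (points, with 95% Clopper-Pearson intervals) and over all sites of the series (diamonds). The diamond lay outside the interval for cell line Sp7 sites with primary Sp7, at 17.0% against 66.7% (4 of 6 sites), and inside it for the other pairs shown. The intervals were not adjusted for the number of pairs.

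The 9 Sp1 sites had a median width of 464 bp after merging (range 250 to 887). The median was 349 bp for Sp7mut (216 to 887), 338 bp for cell line Sp7 (216 to 887), 261 bp for primary Sp7 (216 to 387) and 234 bp for Dlx5 (115 to 887). The ranges overlapped, and wide sites such as Fgfr1-S19 were sites of several factors. Over the series the medians were 326, 333, 317, 262 and 262 bp in the same order. Of the 9, 6 were Dlx5 sites (66.7%, interval 29.9 to 92.5, against 34.5%), 6 were Sp7mut sites (66.7%, against 39.6%) and 2 were cell line Sp7 sites (22.2%, against 19.0%). By cell line Sp7 replicate 1 alone, 5 of the 9 had an Sp7 peak (55.6%, against 52.4%). The sharing of Sp1 with Dlx5 depended on how peaks were joined. With at least 50% of both peaks required, 4 Sp1 sites were left and 1 of them was a Dlx5 site (25%).

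Fgfr3-S2, at chr5:33971761-33972546, was the leading Sp1 site, at 5.20 and 4.36. Dlx5 had it at 27.4 and 46.8, Sp7mut at 67.7 and 23.6, and cell line Sp7 at 70.1 in replicate 1 only. The Sp1 and Dlx5 peaks overlapped in 4 of 4 pairs of lists with midpoints 57.5 to 168 bp apart. Between replicates of the same factor, midpoints there were 58.5 bp apart for Sp1 and 52.5 bp apart for Dlx5. Fgfr3-S8, at chr5:34035107-34035358, lay between Fgfr3-S7 and Fgfr3-S11 and, with both of them, in a group of 7 sites within 15.7 kb. It was an Sp1 (77.2 and 22.0), Dlx5 (59.6 and 57.2) and Sp7mut site (24.2 and 13.4), with no Sp7 peak in either cell system. At Fgfr3-S4, chr5:34000613-34001190, Sp1 (61.7 and 19.6) and Dlx5 (61.7 and 59.4) stood in the same merged site, but their peaks overlapped in 0 of 4 pairs of lists and were at least 264 bp apart at their midpoints. Fgfr3-S14, Fgfr3-S16 and Fgfr3-S18 were the Sp1 sites that were no Dlx5 sites.

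At Fgfr1, the 3 Sp1 sites were also Dlx5 and Sp7mut sites. Fgfr1-S6, at chr8:26629157-26629461, stood at 57.4 and 10.3 in Sp1, 39.4 and 35.7 in Sp7mut and 75.1 and 73.3 in Dlx5, though the Dlx5 peaks of the replicates did not overlap each other. It lay among 5 sites within 3.57 kb, from Fgfr1-S5 to Fgfr1-S9, of which the others held Dlx5 peaks alone. Fgfr1-S16, at chr8:26707420-26708182, and Fgfr1-S19, at chr8:26711761-26712647, were held in 8 of 10 lists each and were sites of every cell line factor. By their earliest Sp7 peak, both were mid-list in replicate 1, at 47.9 and 42.8, and late in replicate 2, at 74.1 and 84.2. At Fgfr1-S19, the Sp7 replicate 1 peak that overlapped the replicate 2 peak was a later one, at 67.0. The peaks of Fgfr1-S16 and Fgfr1-S19 were staggered, with midpoints spread over 600 and 686 bp. The Dlx5 replicates of Fgfr1-S16 did not overlap each other. The Sp7mut replicates of Fgfr1-S19 did not either, with nearest midpoints 380 bp apart. Sp1 and Dlx5 peaks of Fgfr1-S19 overlapped in 0 of 4 pairs. Fgfr1-S18, at chr8:26709246-26709520, stood between Fgfr1-S16 and Fgfr1-S19 and was a Dlx5 site (18.9 and 16.2). It had a peak at 18.9 in cell line Sp7 replicate 1 and at 53.0 in Sp1 replicate 2.

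Over all overlapping peaks in the 3 windows, Sp7 and Dlx5 midpoints in the line had a median distance of 30.5 bp, against 49.5 bp between the Sp7 replicates and 14.8 bp between the Dlx5 replicates. For Sp7 and Sp1 it was 80.2 bp, and 79.0 bp between the Sp1 replicates. Among the pairs of groups compared, primary Sp7 and Dlx5 were closest, at 8.25 bp, against 20.8 bp between the primary Sp7 replicates. For primary Sp7 and cell line Sp7 it was 15.5 bp. No such median was computed for primary Sp7 with Sp7mut or with Sp1, so Dlx5 cannot be called the closest partner of primary Sp7. The median for primary Sp7 and Dlx5 rests on 24 pairs of overlapping peaks, and the one for Sp7 and Dlx5 in the line on 48. The medians are thus taken over different sets of sites. The offset between Sp7 and Sp1 was thus about as large as that between the Sp1 replicates.

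By the rule of both replicates, Sp7mut had more sites than cell line Sp7 at Fgfr3, as it did over the series (8468 against 5217). Of its 13 sites in the receptor windows, 8 were in the Fgfr3 window, where cell line Sp7 had 2. Both cell line Sp7 sites there, Fgfr3-S7 and Fgfr3-S11, were Sp7mut sites. The other 6 had no peak in Sp7 replicate 2, and Fgfr3-S2, Fgfr3-S3 and Fgfr3-S12 had one in Sp7 replicate 1. Fgfr3-S9 and Fgfr3-S12 were sites of Sp7mut alone. Fgfr3-S12 stood at 31.6 and 16.5 in Sp7mut, with single peaks at 26.6 in Sp7 replicate 1, 38.5 in Sp1 replicate 2 and 98.7 in Dlx5 replicate 2. Of the 13 Sp7mut sites, 10 were Dlx5 sites (76.9%, interval 46.2 to 95, against 71.3%), 6 Sp1 sites (46.2%, interval 19.2 to 74.9, against 43.2%) and 5 cell line Sp7 sites (38.5%, interval 13.9 to 68.4, against 44.1%). By the longer Sp7 list alone, replicate 1, 10 of the 13 had an Sp7 peak (76.9%, against 79.7%). By Sp1 replicate 2 alone, 11 had an Sp1 peak (84.6%, against 79.1%). Per the labels, peaks of Sp1 and Sp7mut were called with another input library than those of Sp7 and Dlx5, and the effect of the input cannot be told apart from that of the factor. The shorter Sp7 list also limits what could be found in both replicates, since Sp7 replicate 1 alone had 9 peaks in the window. Sp7mut replicate 1 had 9 there as well.

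Sites of Dlx5 and no other group, by the rule of both replicates, were the largest class among the 41, while 25 sites belonged to no group. Of the 35 Dlx5 sites, 10 were Sp7mut sites (28.6%, against 25.2%), 6 cell line Sp7 sites (17.1%, against 19.0%), 6 Sp1 sites (17.1%, against 13.3%) and 5 primary Sp7 sites (14.3%, against 6.37%). They ranged from early to late in the Dlx5 lists. Fgfr2-S7, at chr7:137273252-137273437, was at 10.1 and 11.9 in Dlx5 and at 90.5 in cell line Sp7 replicate 1. Fgfr2-S10, at chr7:137302983-137303234, was at 42.7 and 43.4 in Dlx5, with single peaks of Sp7 at 54.7 and of Sp7mut at 83.6. By the longer list of each partner alone, 18 of the 35 Dlx5 sites had an Sp7 peak in the line (51.4%, against 46.8%), 14 an Sp1 peak (40.0%, against 41.3%) and 15 an Sp7mut peak (42.9%, against 37.4%).

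In GRCm38.p6 the nearest named protein-coding neighbours are Tacc1 and Letm2 for Fgfr1, Wdr11 and Ate1 for Fgfr2, and Tacc3 and Letm1 for Fgfr3. An annotation of mm9 was not used here, so sites were not assigned to promoters, exons or introns of the receptors or of these neighbours, and other genes of the FGF pathway were not analysed here.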

How the data were processed

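Peak lists of 12 of the 15 samples were used, and the 3 input samples have no list here. Each deposited list holds the authors' chromosome, start and end of each peak, with no score. Coordinates are those of mm9, per the submitters' processing notes. There is 1 list per library, and the labels name as input for peak calling 1 input for the primary lists, 1 for cell line Sp7 and Dlx5 and 1 for Sp1 and Sp7mut. Neither the peak caller, its threshold nor the aligner is given in the sources used here. Groups and replicate numbers came from sample titles.

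Peaks of all lists sharing at least 1 bp were merged, and a site counted for a group when both of its replicates had a peak in it. Control peaks were kept. A list with several peaks in a site is shown by the earliest. Peaks per Mb over a whole list used the span between the outermost peaks of all lists, 2566 Mb in all. Sites are 1-based. Described sites were, per locus, the 5 in most of the 10 tagged lists, with ties broken by mean row percentile, and the leading site of each group. Others named were chosen after their values were seen. Members and rules were chosen with earlier results of these data known. Groups of 2 lists were compared by their spread, with no test. The merging code was tested on simulated lists. Python 3.11.15, numpy 2.4.6, scipy 1.17.1 and matplotlib 3.10.9 were used.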

Additional observations from a re-analysis of the deposited data

How the results depend on the processing

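No paired analysis was possible because the results come from no test. Removing control peaks, merging peaks within 200 bp and taking peaks by any overlap with the window moved no count of sites by over 1.5 times, and left every share and median they were run for within its interval or SD. The number of sites per window was 20, 26 and 20 for Fgfr1, Fgfr2 and Fgfr3. Where peaks were joined only when they shared 50% of both lengths it was 35 at Fgfr1 and 35 at Fgfr3, with the earlier 50% of rows 12 at Fgfr2, and with lists cut to the 6063 rows of the shortest cell line list 8, 9 and 11.

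Sites found in both replicates, in the order primary Sp7, cell line Sp7, Dlx5, Sp1 and Sp7mut, numbered 6, 6, 35, 9 and 13. With the earlier 50% of rows they were 2, 3, 18, 2 and 8, and with the wider 50% of peaks 2, 2, 10, 1 and 5. In cut lists cell line Sp7, Dlx5, Sp1 and Sp7mut had 3, 6, 3 and 8. With an overlap of 50% Sp1 had 4. With either replicate enough, cell line Sp7, Sp1 and Sp7mut had 23, 28 and 22. Leaving out a replicate gave 6 to 23 for cell line Sp7, 9 to 28 for Sp1 and 13 to 22 for Sp7mut.

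Except for the ranges, the shares below are outside the interval of the value in the report. With the earlier 50% of rows, the share of Dlx5 sites with Sp1 was 5.56%, of Sp7mut with Dlx5 37.5%, and of primary Sp7 with Dlx5 and with Sp7mut 100%, while cell line Sp7 and Sp7mut with Sp1, and Sp1 with cell line Sp7 and with Sp7mut, were at 0%. With the wider 50% of peaks, cell line Sp7 with Dlx5 was 50.0%, Sp7mut with Dlx5 20.0% and Dlx5 with Sp7mut 10.0%. There, Dlx5 with Sp1 and with primary Sp7, Sp1 with Dlx5, cell line Sp7 and Sp7mut, cell line Sp7 with Sp1 and with primary Sp7, Sp7mut with Sp1, and primary Sp7 with Dlx5, cell line Sp7 and Sp7mut were at 0%. In cut lists, Dlx5 with Sp1, Sp1 with Dlx5 and with cell line Sp7, and cell line Sp7 with Sp1 were at 0%, Dlx5 with cell line Sp7 and with primary Sp7 at 50.0%, cell line Sp7 with primary Sp7 at 100%, Sp7mut with Dlx5 at 25% and Sp7mut with Sp1 at 12.5%. With an overlap of 50%, Dlx5 with Sp1 was 3.57% and with Sp7mut 14.3%, Sp1 with Dlx5 25%, cell line Sp7 and Sp1 with each other 0%, and Sp7mut with Dlx5 44.4%. With the partner in either replicate, Dlx5 with Sp1 was 40.0% and with cell line Sp7 51.4%, Sp7mut with Sp1 84.6% and with cell line Sp7 76.9%, and cell line Sp7 with Sp7mut and primary Sp7 with Dlx5 100%.

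Leaving out a replicate of both factors gave 17.4% to 66.7% for cell line Sp7 with primary Sp7, 43.5% to 100% for cell line Sp7 with Sp7mut, 46.2% to 77.3% for Sp7mut with Sp1, 27.3% to 76.9% for Sp7mut with cell line Sp7, 12.8% to 45% for Dlx5 with cell line Sp7 and 83.3% to 100% for primary Sp7 with Dlx5. An alternative chosen after seeing the data left out a replicate of the partner alone. It gave 17.1% to 40.0% for Dlx5 with Sp1, 17.1% to 51.4% for Dlx5 with cell line Sp7, 83.3% to 100% for cell line Sp7 with Sp7mut, 46.2% to 84.6% for Sp7mut with Sp1, 38.5% to 76.9% for Sp7mut with cell line Sp7 and 83.3% to 100% for primary Sp7 with Dlx5.

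Ranked by width, the medians were 52.4 for Dlx5, 36.5 for Sp1, 49.5 for Sp7mut and 45.9 for primary Sp7. Of the counts by locus and group, 52 of 135 values under alternatives moved by over 1.5 times. Fewer peaks are left by construction when lists are shortened, and other causes were not tested. The lists hold no read counts, so depth could not be weighed.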
